A study of Mus musculus with 16 samples.

Results

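Of 79278 autosomal regions of accessible chromatin in SBROS mouse embryonic stem (ES) cells, 15700 (19.8%, 95% Wilson interval 19.5 to 20.1%) were narrower than 200 bp. These narrow regions were selected on their width alone, the end minus the start of each region, and were compared with the 63578 autosomal regions of 200 bp or more, referred to as wider regions. The regions come from ATAC-seq, in which the Tn5 transposase inserts sequencing adapters into open DNA, of 12 libraries of G1-phase cells. SBROS is a knock-in line made from CGR8 ES cells, in which both Sox2 alleles carry a SNAP-tag, a single Oct4 allele carries a HALO-tag, and the Sox1 and Brachyury genes have reporters. Cells grown with serum, LIF, CHIR99021 and PD184352 were stained with dyes that label the HALO-tag and the SNAP-tag, and with Hoechst for DNA content. They were sorted into SHOH (SOX2-high, OCT4-high), SHOL (SOX2-high, OCT4-low), SLOH (SOX2-low, OCT4-high) and SLOL (SOX2-low, OCT4-low) populations, with 3 replicates each. The deposited list pools the peaks of all 12 libraries and gives only the position of each region. The authors state 30 to 60 M reads per library, but no read count of a region is given, narrow regions could not be traced to a population, and the intervals given here cover counting error over regions only, which are not replicates of a condition.

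Accessible chromatin marks stretches of DNA where nucleosomes are displaced or loosely held, mostly at promoters, enhancers and sites of architectural proteins. In ES cells OCT4 and SOX2 bind many enhancers together with ESRRB, NANOG and KLF factors, while CTCF binds insulators and loop anchors through a long sequence motif that its zinc fingers read. A peak caller reports the stretch over which fragments pile up above a threshold, and merging overlapping peaks of several libraries can only widen it.

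To show what such regions look like, 7 narrow regions are printed on the plus strand of GRCm38, the assembly that mm10 denotes, chosen by a rule from regions that overlap no exon. Capitals mark the match to the motif named, on either strand, and the last 2 sequences hold no match to the 9 motifs searched within their central 100 bp. The first 3 are the narrow regions closest to the transcription start site (TSS) of a naive pluripotency gene with an octamer, a SOX motif or an ESRRB motif, out of 1, 1 and 2 candidates. They are an intronic region of Esrrb at chr12:86478939-86479068, an intergenic region 2773 bp from the TSS of Klf2 at chr8:72316163-72316357 and another intronic region of Esrrb at chr12:86365526-86365657. The following 2 hold the CTCF core, at chr11:76677178-76677342, an intergenic region 2548 bp from the TSS of Trarg1 whose width of 165 bp equals the median of the narrow regions, and at chr7:24890587-24890698, an intergenic region of 112 bp that is 1903 bp from the TSS of Rps19 and was added after the data were seen. The last pair gives the extremes of width, a region of 112 bp in an intron with Gm28686 as the closest gene at chr1:11234027-11234138, and a promoter region of 199 bp 140 bp from the TSS of Tsta3 at chr15:75929177-75929375.
Esrrb intron, octamer: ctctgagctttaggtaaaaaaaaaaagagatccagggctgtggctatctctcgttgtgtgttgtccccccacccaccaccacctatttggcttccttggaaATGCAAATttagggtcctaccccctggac
Klf2 upstream, SOX motif: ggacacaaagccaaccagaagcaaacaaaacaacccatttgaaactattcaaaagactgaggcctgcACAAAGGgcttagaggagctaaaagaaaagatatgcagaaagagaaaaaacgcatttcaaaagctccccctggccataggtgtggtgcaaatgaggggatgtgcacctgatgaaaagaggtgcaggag
Esrrb intron, ESRRB motif: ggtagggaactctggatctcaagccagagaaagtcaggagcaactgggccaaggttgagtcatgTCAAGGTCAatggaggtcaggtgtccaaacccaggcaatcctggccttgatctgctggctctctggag
Trarg1 intergenic, CTCF core: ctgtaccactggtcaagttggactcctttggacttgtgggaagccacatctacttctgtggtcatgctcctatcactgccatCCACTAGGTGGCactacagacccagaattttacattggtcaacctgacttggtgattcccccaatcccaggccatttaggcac
Rps19 intergenic, CTCF core: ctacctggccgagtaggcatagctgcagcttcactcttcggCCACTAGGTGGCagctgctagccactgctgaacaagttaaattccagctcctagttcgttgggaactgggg
Gm28686 intron, narrowest: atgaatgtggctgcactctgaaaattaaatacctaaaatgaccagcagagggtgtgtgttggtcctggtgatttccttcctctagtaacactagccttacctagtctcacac
Tsta3 promoter, at the limit: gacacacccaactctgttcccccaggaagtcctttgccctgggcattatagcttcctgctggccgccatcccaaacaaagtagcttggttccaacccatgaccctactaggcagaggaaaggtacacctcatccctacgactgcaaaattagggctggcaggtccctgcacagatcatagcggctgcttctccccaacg

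The widths of the narrow regions ran from 112 to 199 bp, with a median of 165 bp and quartiles of 149 and 181 bp. They covered 2.58 Mb, or 7.52% of the 34.4 Mb in autosomal regions. Their number did not change evenly with width. The 4 largest rises between neighbouring widths were at 129 bp (from 23 to 83 regions), 132 bp (from 89 to 137), 140 bp (from 164 to 246) and 159 bp (from 208 to 251), and the next was at 153 bp (from 188 to 230). Whether peak calling in single libraries set these steps was not tested. Below 129 bp there were 23.4 regions per bp of width on average, and from 159 to 179 bp there were 261. From 180 to 199 bp the mean was 210.5 regions per bp, and just past the limit, from 200 to 219 bp, it was 187. At the limit itself, 202 regions of 199 bp lay just inside and 187 regions of 200 bp just outside. The regions of 190 to 199 bp and those of 200 to 209 bp were centred in promoters in 9.57% and 9.42% of cases, had a median GC content of 51% each in their central 100 bp, and lay a median of 8652 and 8209 bp from a TSS. No step in these features thus marked the limit.

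**Figure D1:**
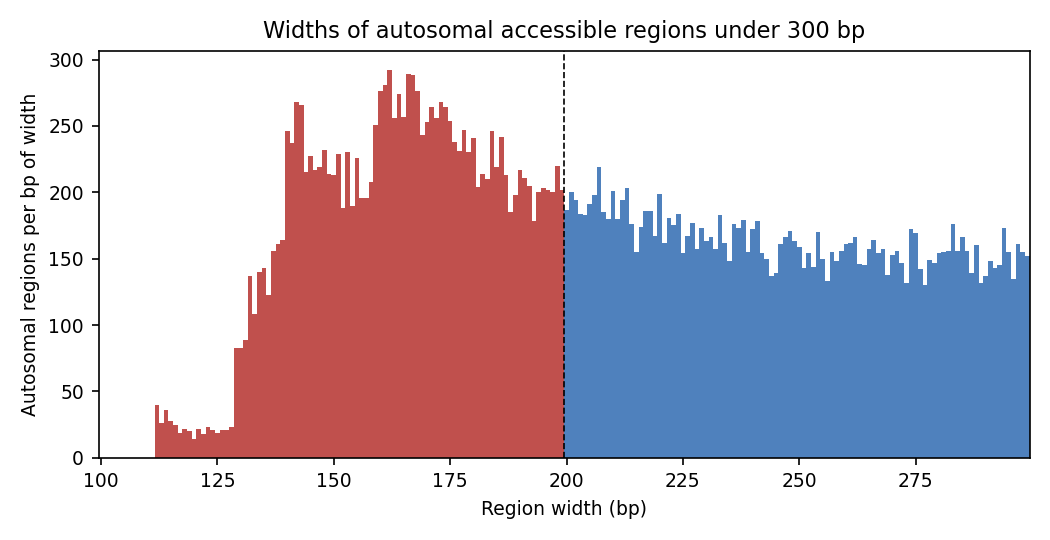
Number of autosomal regions at each width from 100 to 299 bp, with regions under 200 bp in red, wider regions in blue and the limit as a dashed line. No region was narrower than 112 bp, and the counts stepped up at 129, 132, 140 and 159 bp.

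Narrow regions were found less often at promoters and more often in introns and intergenic sequence than wider regions. The class of a region was read at its midpoint, with promoters (from 1000 bp before to 100 bp after a TSS) taken before exons, exons before introns, and the remainder counted as intergenic. Promoters held 1497 narrow regions (9.54%, 95% interval 9.09 to 10.0%) and 23.6% of the wider regions, a difference of -14.1 percentage points (Newcombe 95% interval -14.7 to -13.5), in the same direction on 19 of 19 autosomes. Introns held 6693 narrow regions (42.6%) against 33.5% of the wider regions, a difference of 9.18 points (8.32 to 10.0), and intergenic sequence held 6251 (39.8%) against 33.9%, a difference of 5.88 points (5.03 to 6.73). Both were higher among narrow regions on 19 of 19 autosomes. Exons held 1259 narrow regions (8.02%) against 8.98% of the wider regions, a difference of -0.959 points (-1.43 to -0.471). This small deficit in exons depended on how regions were assigned, and changed sign to 0.706 points (0.316 to 1.11) when promoters extended 1000 bp to both sides of a TSS. Among exonic regions, 41.5% of the narrow and 47.5% of the wider ones were centred in coding sequence, and 30.7% against 24.3% in exons of noncoding transcripts. The share of narrow regions in promoters was still 2.56 times the share of promoters in autosomal sequence, and that of wider regions was 6.33 times. The same ratio for narrow regions was 1.02 in introns and 0.792 in intergenic sequence. Seen from the other side, 9.06% of all promoter regions were narrow, against 18.1% in exons, 23.9% in introns and 22.5% in intergenic sequence.

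**Figure D2:**
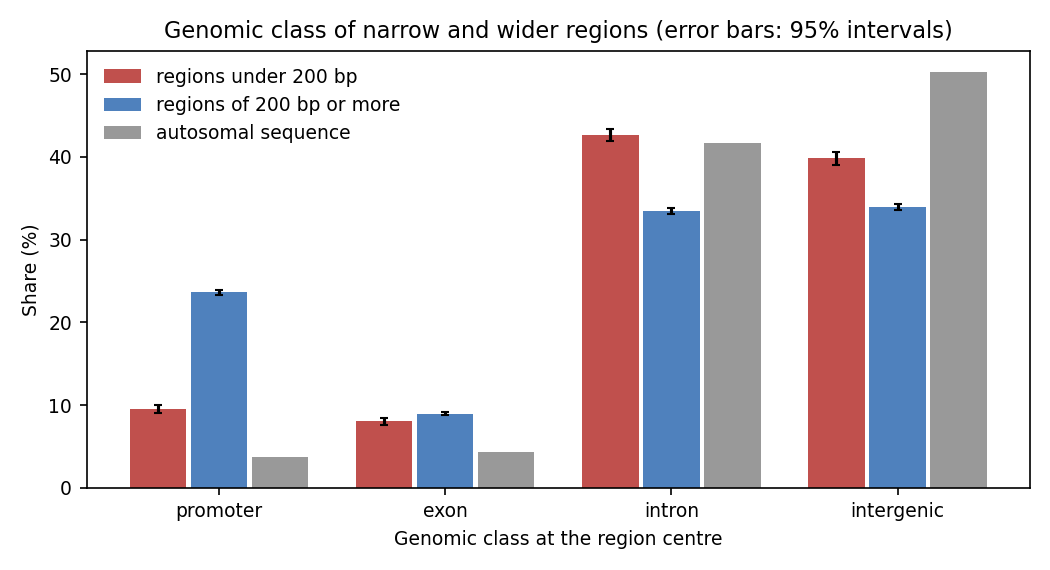
Share of narrow regions (red), wider regions (blue) and autosomal sequence without gaps (grey) in each genomic class, with 95% Wilson intervals as error bars on the region shares. Narrow regions are below wider ones in promoters (9.54% against 23.6%) and above them in introns and intergenic sequence.

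The contrast with wider regions came mostly from regions far above the limit. The promoter share was 9.97% at 112 to 139 bp, 9.69% at 140 to 159 bp, 9.32% at 160 to 179 bp and 9.45% at 180 to 199 bp. Past the limit it was 11.0% in regions under 250 bp, 12.8% from 300 to 399 bp, 43.9% from 600 to 999 bp, and 58.8% in the widest regions. Set against regions of 200 to 299 bp alone, a comparison chosen after the data were seen, the promoter share of narrow regions was lower by a difference of -1.40 points (-2.07 to -0.739), and the intergenic difference of 0.380 points no longer excluded 0 (-0.692 to 1.45). The intron difference was 1.12 points (0.0387 to 2.20) there. Narrow regions and regions of 200 to 299 bp were therefore close to each other in class.

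The 1497 narrow promoter regions differed from the 15022 wider promoter regions in where they lay and in their sequence. Their centres were a median of 199 bp from the TSS, against 72 bp for wider promoter regions, and were farther on 19 of 19 autosomes. Of the narrow promoter regions 36.5% were centred within 100 bp of the TSS, against 61.7% of the wider ones, a difference of -25.1 points (-27.7 to -22.5). More than 300 bp upstream of the TSS lay 35.0% of the narrow and 13.6% of the wider promoter regions, a difference of 21.4 points (18.99 to 23.9). CpG islands, which cover the promoters of most broadly expressed genes, are marked by a high ratio of observed to expected CpG. That ratio exceeded 0.6 in the 1 kb around 27.7% of the narrow promoter regions and 61.5% of the wider ones, a difference of -33.9 points (-36.2 to -31.4). The closest gene was protein-coding for 72.1% of the narrow promoter regions and 84.5% of the wider ones. Narrow promoter regions also stood closer to other regions. Their median gap to the nearest region was 1074 bp, against 4944 bp for wider promoter regions, and 36.9% of them had another region within 500 bp, against 21.3%. In those pairs the neighbour of a narrow promoter region had a median width of 466 bp, against 364 bp beside a wider promoter region. The printed promoter region of Tsta3, with a gap of 6 bp to its neighbour, and a promoter region of Lhx2, with a gap of 77 bp, are examples.

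Narrow regions had a lower GC content than wider regions. In the central 100 bp, a window of fixed length in which width does not enter, the median GC content was 51% (quartiles 45 and 56%) in narrow regions and 54% (47 and 61%) in wider regions. It was lower on 19 of 19 autosomes. The narrow region had the lower value in 60.6% of all pairs, with pairs of equal value split evenly between the groups. The difference of the medians was -3 percentage points (-4 to -3). In promoters the medians were 55% and 64%, in exons 56% and 60%, in introns 50% and 51%, and in intergenic sequence 49% and 50%. In introns and intergenic sequence the medians thus lay 1 point apart. With GC content read over whole regions, the difference was -0.158 points (-0.243 to 0.187) in introns and 0.00564 points (-0.234 to 0.303) in intergenic sequence. Both of these intervals included 0. In promoters it was -5.59 points and in exons -2.70 points. Over the 1 kb around the centre the medians were 46.4% and 49.4%. Both groups lay above a fixed background, a window of 100 bp placed 5 kb past the end of each region and touching no region, in which the median was 45% for each. Against regions of 200 to 299 bp the difference of the medians in the central 100 bp was 0.

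Sequence written in lower case in the reference, which marks interspersed and simple repeats, was somewhat more common in narrow regions. The median share of lower-case bases in the central 100 bp was 0 in both groups, so the share of regions with more than 50% of such bases was used. It was 19.4% of narrow regions (18.8 to 20.0%) and 14.6% of wider regions, a difference of 4.78 points (4.11 to 5.47), higher on 19 of 19 autosomes. Against regions of 200 to 299 bp the difference was 1.25 points (0.392 to 2.103). No lower-case base was present in 50.9% of the narrow and 58.0% of the wider windows. In intergenic sequence the mean share of lower-case bases was 28.7% in narrow and 27.8% in wider regions, and in promoters it was 13.3% and 7.08%. The background windows had a mean of 30.6% beside narrow regions.

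Narrow regions lay farther from genes and closer to other accessible regions. The median distance from the centre to the closest TSS was 8417 bp (quartiles 2374 and 22565 bp), against 5708 bp for wider regions, and it was larger on 19 of 19 autosomes. Within 1 kb of a TSS lay 2404 narrow regions (15.3%) and 31.2% of the wider regions, a difference of -15.9 points (-16.6 to -15.2), which was -1.24 points (-2.05 to -0.443) against regions of 200 to 299 bp. More than 50 kb from any TSS lay 10.6% of the narrow and 8.61% of the wider regions. Within exons the medians were 2488 and 1355 bp. In introns they were 8405 and 8576 bp and in intergenic sequence 14918 and 15176 bp, and in both of these classes the interval of the difference included 0. Against regions of 200 to 299 bp the median distance differed by 63.5 bp, with an interval (-271 to 416 bp) that also included 0.

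The median gap, edge to edge, from a narrow region to the nearest other region was 4557 bp, against 5453 bp for wider regions, and was smaller on 19 of 19 autosomes. Another region lay within 5 kb of 8246 narrow regions (52.5%) and of 47.1% of the wider regions, a difference of 5.46 points (4.59 to 6.33). Within 500 bp the shares were 17.2% and 14.5%. At 20 kb the groups were level, at 83.9% each, with a difference of -0.0115 points (-0.660 to 0.624). At the other extreme, 920 narrow regions (5.86%) and 5.08% of the wider regions had no region within 50 kb. Outside promoters 50.2% of the narrow and 46.0% of the wider regions had a neighbour within 5 kb. The nearest neighbour within 5 kb was itself narrow for 21.3% of the narrow regions that had one and for 22.1% of such wider regions, a difference of -0.801 points whose interval (-1.79 to 0.210) included 0. For neighbours within 500 bp these shares were 24.5% and 22.3%, a difference of 2.21 points (0.407 to 4.07). Set against regions of 200 to 299 bp, the difference in the share with a region within 5 kb was -0.587 points (-1.68 to 0.506), an interval that included 0.

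Short sequences of known factors were counted in the central 100 bp on both strands. The strings were ATGCAAAT for the octamer bound by OCT4, CCATTGT or CCTTTGT for SOX factors, TCAAGGTCA or CCAAGGTCA for ESRRB, GGGCGTGG or GGGTGTGG for KLF factors, CCGGAAGT for ETS factors, AAGATGGCG for YY1, GCGCATGCG for NRF1, TGACTCA or TGAGTCA for AP-1, and the core consensus of CTCF. A match describes the letters in the window and is not a bound site. Of the narrow regions, 2790 (17.8%) held at least 1 of the 9 motifs, against 15.5% of the wider regions. Intervals of the 9 differences were not adjusted for their number.

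The CTCF core showed the largest difference in percentage points. On a log scale the ratios of NRF1 (0.384), ETS (0.407) and YY1 (0.444) were farther from 1 than that of CTCF (1.81). The core was present in 635 narrow regions (4.04%, 3.75 to 4.36%) and in 2.24% of the wider regions, a difference of 1.81 points (1.49 to 2.15), higher on 18 of 19 autosomes. Over all autosomal regions the share was 2.59%, and in the background windows beside narrow regions it was 0.0461%, or 7 of 15189 windows. The difference kept its direction outside promoters, where the shares were 4.19% and 2.75%, among regions with a central GC content of 45 to 55%, with a difference of 1.86 points (1.35 to 2.41), and against regions of 200 to 299 bp, with a difference of 1.62 points (1.23 to 2.01). The central 100 bp is a larger part of a narrow region than of a wider one, so these differences concern cores near the centre. Counted over whole regions, the difference was -1.61 points (-1.98 to -1.22). Wider regions then have more sequence to hold a match, and whether this gave the change of sign was not tested.

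The frequency of the CTCF core varied among the narrow regions themselves, in width ranges chosen after the data were seen. It was 7.23% at 112 to 139 bp (6.12 to 8.52%), 4.88% at 140 to 159 bp, 2.94% at 160 to 179 bp and 3.18% at 180 to 199 bp. Regions under 160 bp held the core in 5.55% and those of 160 to 199 bp in 3.05%, a difference of 2.501 points (1.85 to 3.18) seen on 19 of 19 autosomes. In promoter share, exon share and repeat share the same split gave differences whose intervals included 0, while the intergenic share differed by -1.64 points (-3.20 to -0.0744) and the share with a region within 5 kb by 1.72 points (0.126 to 3.31). Of the other motifs only YY1 differed between these ranges, by -0.226 points (-0.403 to -0.0397). Among wider regions the share in the central 100 bp fell to 1.87% at 300 to 399 bp, was 4.27% at 400 to 599 bp and 0.472% at 600 to 999 bp. Over whole regions, which differ in length, the share was 7.39% at 112 to 139 bp and 5.21% at 140 to 159 bp. At 160 to 179 bp it was 3.65% and at 180 to 199 bp 4.30%. Past the limit the share was 5.42% at 200 to 249 bp, 7.03% at 250 to 299 bp and 8.83% at 300 to 399 bp. It was 7.56% at 400 to 599 bp and 3.61% at 600 to 999 bp.

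**Figure D3:**
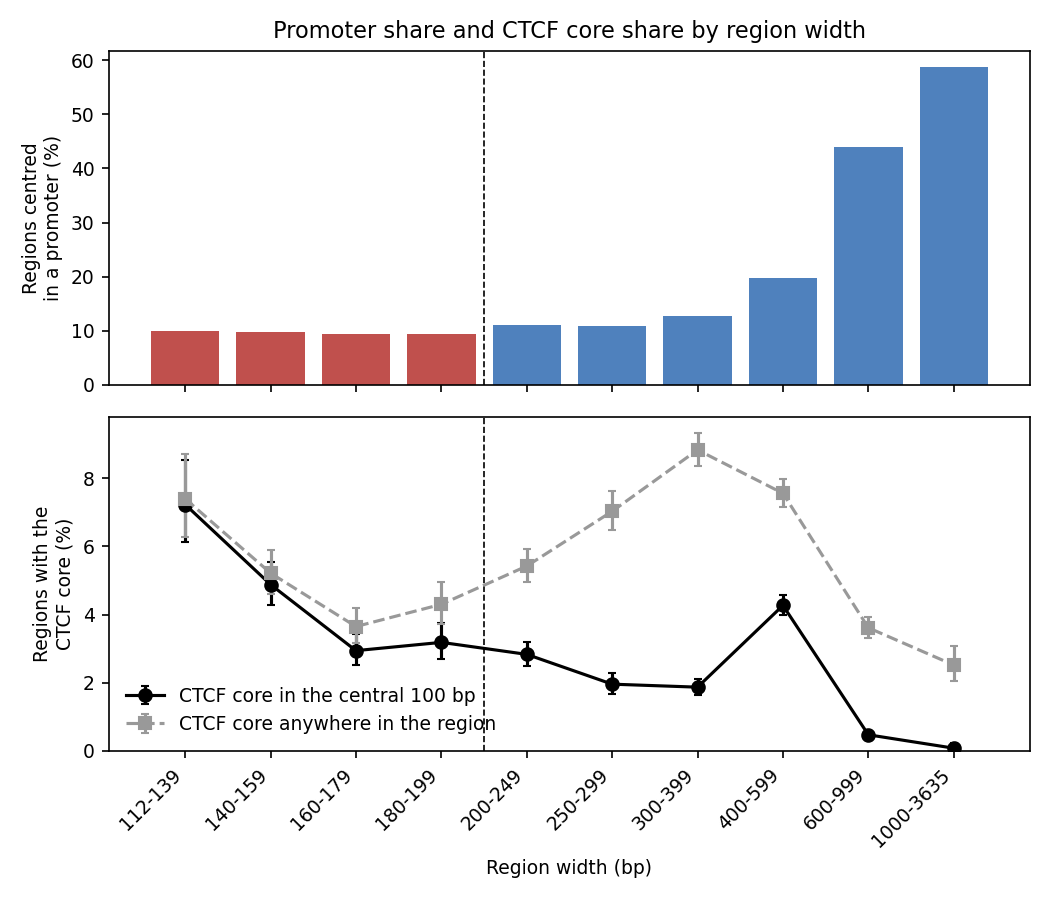
Share of regions centred in a promoter (upper panel, bars) and share with the CTCF core (lower panel, points with 95% Wilson intervals) by region width in bp, with the 200 bp limit as a dashed line. The promoter share is about level below 200 bp, while the CTCF core in the central 100 bp falls from 7.23% to 2.94% between the narrowest regions and those of 160 to 179 bp.

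The CTCF core was also counted by its distance from the region centre, up to 400 bp and so also past the edges of regions. In regions of 112 to 159 bp the core was centred within 50 bp of the region centre in 5.71% of regions and 50 to 150 bp from it, on both sides and so over 2 times the length, in 0.688%. In regions of 160 to 199 bp these shares were 3.31% and 1.29%. Most of this outer zone lies beyond the edges of regions under 200 bp, and part of it beyond those of 200 to 299 bp. The width itself thus limits how many cores in this zone can be inside the region. In regions of 200 to 299 bp they were 2.72% and 3.83%, and bins of 20 bp up to 100 bp from the centre held between 4.77 and 6.73 cores per 1000 regions. In regions of 300 to 399 bp the shares were 2.29% and 6.47%, with 3.24 cores per 1000 regions in the bins on either side of the centre and 11.1 in the highest bin, 60 to 80 bp from it. At 400 to 599 bp the shares were 4.49% and 2.24%. Farther out, 300 to 400 bp from the centre, the share was at most 0.144% in all 5 width ranges. The narrow regions with a core were distributed among the classes much like wider regions with a core, with 6.30% and 6.19% in promoters, 40.9% and 44.2% in introns, and 46.0% and 43.0% in intergenic sequence. Their median gap to the nearest region was 5095 bp, against 6813 bp. The Trarg1 and Rps19 regions printed above show the core, in capitals, inside regions of 165 and 112 bp.

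**Figure D4:**
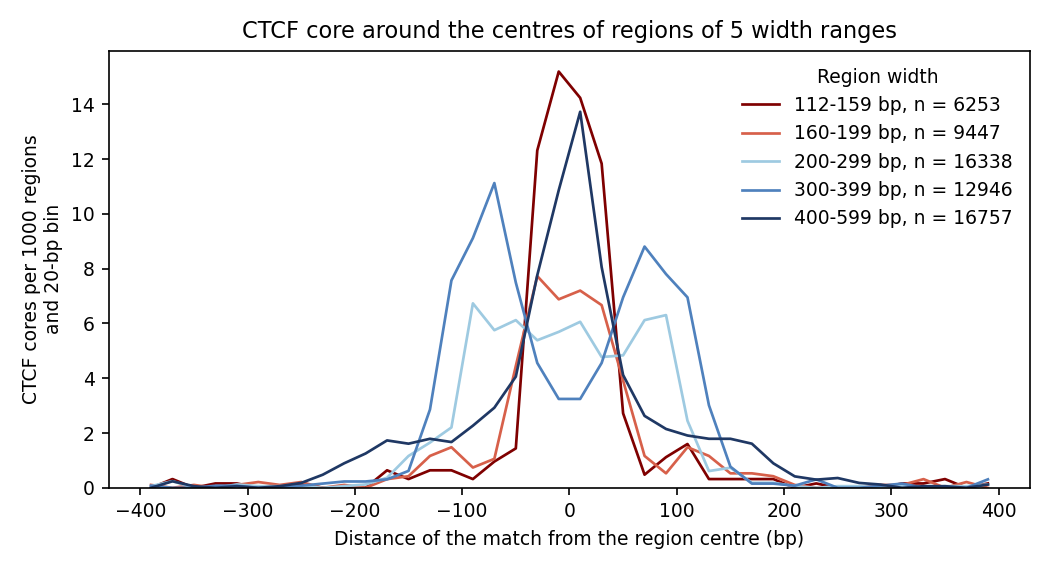
CTCF cores per 1000 regions in bins of 20 bp (y axis) by distance in bp from the region centre (x axis), for 5 width ranges (lines, with the number of regions in the key). The 112 to 159 bp regions have a single peak at the centre of 15.2 cores per 1000 regions, whereas regions of 300 to 399 bp have a peak on either side of the centre.

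Motifs of pluripotency factors differed less. The ESRRB motif was present in 217 narrow regions (1.38%) and 0.974% of the wider regions, a difference of 0.409 points (0.220 to 0.617), with 1.05% over all autosomal regions. Outside promoters the difference was 0.255 points (0.0485 to 0.481), but its interval included 0 at a central GC content of 45 to 55% (0.202 points, -0.116 to 0.555) and against regions of 200 to 299 bp (0.140 points, -0.110 to 0.391). The octamer was found in 138 narrow regions (0.879%) and 0.702% of the wider regions, with 0.737% over all, and the SOX motif in 794 (5.06%) and 4.55%, with 4.65% over all. Outside promoters the octamer difference was 0.129 points (-0.0371 to 0.316) and the SOX difference was -0.0240 points (-0.433 to 0.403), so neither excluded 0. Both an octamer and a SOX motif were in the central window of 4 narrow (0.0255%) and 28 wider regions (0.0440%), and the interval of the difference (-0.0436 to 0.0237 points) included 0. KLF motifs were present in 4.05% of narrow and 4.10% of wider regions, with 4.09% over all, and the interval of the difference (-0.389 to 0.301 points) included 0. It excluded 0 at a central GC content of 45 to 55%, with a difference of 0.650 points (0.146 to 1.19), after joining regions at most 500 bp apart, with 0.384 points (0.00995 to 0.780), and over whole regions, with -8.99 points. AP-1 motifs occurred in 2.49% and 2.03% with 2.12% over all, and the difference outside promoters, 0.187 points, had an interval that included 0 (-0.0954 to 0.488).

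Motifs of factors that bind CpG-rich promoters were less frequent in narrow regions. The ETS motif was present in 0.287% of narrow and 0.705% of wider regions (0.622% over all), YY1 in 0.344% and 0.775% (0.690% over all), and NRF1 in 0.0955% and 0.249% (0.218% over all). The ETS difference of -0.418 points (-0.517 to -0.303) held on 19 of 19 autosomes but was 0.0151 points outside promoters (-0.0736 to 0.124). There YY1 still differed, at 0.380% against 0.682%, a difference of -0.301 points (-0.419 to -0.167), while the NRF1 difference was -0.0408 points (-0.0875 to 0.0238). The YY1 interval included 0 at a central GC content of 45 to 55% (-0.137 points, -0.256 to 0.0142) and against regions of 200 to 299 bp (-0.115 points, -0.256 to 0.0246). Each of the 9 motifs was more frequent in narrow regions than in the background windows beside them. The excess ranged from 0.0890 points for NRF1 (0.0404 to 0.151) to 4.00 points for CTCF (3.70 to 4.32), with 0.207 points (0.0112 to 0.405) for the octamer.

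The narrow share was similar across the autosomes. It ran from 18.8% on chromosome 1 (17.8 to 19.8%) to 21.6% on chromosome 12 (20.3 to 23.0%), with a median of 19.7%, and the intervals of 4 of 19 autosomes did not include the overall share. Chromosome 6, which had the most regions per Mb, also had the most narrow regions per Mb, 9.60 against a median of 6.44, and 21.3% of its regions were narrow, against 19.7% on the other autosomes, a difference of 1.63 points (0.616 to 2.67). Outside promoters the highest narrow share was 24.8%, on chromosome 11.

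The closest gene of a region was the gene whose TSS lay nearest to its centre. Narrow regions had a protein-coding gene as the closest gene in 56.2% of cases, against 61.4% for wider regions, and a processed pseudogene in 13.5%, against 11.1%. At least 1 narrow region was found for 11158 of the 29980 genes with a closest autosomal region (37.2%), and for 8186 of these genes it was exactly 1. Narrow regions were the only ones for 2158 genes, of which 1892 had a single region. Rsg1, on chromosome 4 and named after its values were seen, had 4 regions, all of them narrow. Of the narrow regions outside promoters, 45.02% shared their closest gene with at least 1 region centred in a promoter, which can be that of another gene. This share was 41.8% for the wider regions outside promoters, a difference of 3.23 points (2.30 to 4.16).

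The genes with the most narrow regions had 20 or more regions of any width. Pde4d, which encodes a cAMP phosphodiesterase, had 13 narrow regions among 64, a share of 20.3% that is close to the 19.8% over all regions, and 11 of these lay in its introns. Magi1, a scaffold protein of cell junctions, had 11 among 37, all intronic, with the CTCF core in 2 of them. The lincRNA D730003K21Rik had 10 among 33, which were all intergenic and lay between 7692 and 222259 bp from its TSS. The calcium channel gene Itpr1 and the splicing regulator gene Rbfox1 had 9 each, among 25 and 20 regions. In Rbfox1 the core of CTCF was present in 2 of them, at chr16:6480493-6480657 and chr16:6791781-6791961. A pair of narrow regions 37 bp apart, at chr13:109768344-109768508 and chr13:109768546-109768721, lay in an intron of Pde4d.

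Among the 717 genes with 10 or more closest regions the median narrow share was 20.0%. It exceeded 50% for 8 genes and was 0 for 48. Camk2n1, an inhibitor of the kinase CaMKII, had the highest share, with 7 of 10 regions narrow. Of these 3 lay side by side in its promoter, at chr4:138453328-138453488, chr4:138453519-138453704 and chr4:138453809-138453980, 906, 702 and 419 bp from the TSS, and the first held an ESRRB motif. Tnk2, a non-receptor tyrosine kinase, had 8 of 12, and the pseudogene Gm6272 had 8 of 13, of which 3 held the CTCF core. The kinase gene Sik3 and the GATA-type repressor gene Trps1 had 7 of 12 each. At the other end, Ryr3, a calcium release channel, had 0 narrow regions of 18, which allows a share of up to 16.7%. Pdzd2, Sh3pxd2a and Smarcad1 had 0 of 16 and Slc25a13 had 0 of 15. Genes in both groups were picked by their narrow share, which is therefore a description.

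Of the genes that carry the tags and reporters of the study, Pou5f1, which encodes OCT4, had 0 narrow regions of 5 and Sox2 had 0 of 2. Nanog had 0 of 3, the narrowest being an intronic region of 223 bp. With so few regions the share allowed was up to 60% for Pou5f1 and was not limited for Sox2 and Nanog, so these counts do not exclude the overall share. Sox1, a marker of neuroectoderm, had a single closest region, and it was narrow. This region, chr8:12395123-12395317, was 195 bp wide and lay at the promoter, 75 bp from the TSS, with a GC content of 61%. T, which encodes Brachyury, a regulator of mesoderm, had 2 narrow regions of 8. The region chr17:8433270-8433444, 175 bp wide, lay 1066 bp from the TSS and 274 bp from the promoter region of 1233 bp, and the other, chr17:8461610-8461795, was intergenic at 26292 bp.

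Gene lists of pluripotency and early lineages held narrow regions at shares around that of all autosomal regions, 19.8%. For naive pluripotency genes, 28 of 126 regions were narrow (22.2%, 15.8 to 30.2%), at 12 of 19 genes with a region. Esrrb, an orphan nuclear receptor of the naive state, had the most, 7 of 19. They included the regions with an ESRRB motif and an octamer printed above, a promoter region 76 bp from a TSS at chr12:86421498-86421637, and a pair separated by 13 bp in an intron, at chr12:86464342-86464523 and chr12:86464537-86464668, the second with an AP-1 motif. Zfp42, which encodes REX1, had 4 of 11, Klf2 had 3 of 5 and Tfap2c had 3 of 19. Formative and primed genes had 10 of 65 (15.4%, 8.58 to 26.1%), led by Etv5 with 3 of 12. Neuroectoderm genes had 19 of 101 (18.8%), among them Lhx2 with 3 of 7, including a promoter region of 151 bp at chr2:38351830-38351980 with a GC content of 74%, Pax7 with 3 of 7, and Atoh1 and Gbx2 with 2 each. Mesoderm genes had 6 of 46 (13.0%, 6.12 to 25.7%), from Isl1 and T with 2 each and Gata4 and Msgn1 with 1 each. This was the lowest share of the lists, but with protein-coding genes only it was 19.5% and formative and primed genes were lowest, at 14.4%, as they were among all regions within 50 kb of a TSS (13.3%, against 13.4% for mesoderm genes). For endoderm genes the count was 12 of 45 (26.7%, 16.0 to 41.0%), with 2 each at Dab2, Gata6, Pdgfra and Sox7. Trophectoderm genes had 8 of 49 (16.3%), with 3 of 8 at Gata3 and 2 of 5 at Tfap2a.

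Among genes of chromatin regulation, polycomb genes encode repressive complexes that modify histones. Of their regions 23 of 105 (21.9%) were narrow, with 6 of 28 at Rybp and 4 of 13 at Jarid2, all intergenic in the latter. Genes of DNA methylation and demethylation had 18 of 66 (27.3%, 18.003 to 39.0%). Tet1, a 5-methylcytosine dioxygenase, had 5 of 11, and 2 of them were 51 bp apart in an intron, at chr10:62886163-62886321 and chr10:62886373-62886498. Dnmt3a, a de novo methyltransferase, had 2 of 13, of which chr12:3906477-3906647 lay 254 bp from a TSS and held the CTCF core. Tet2 and Mbd2 had 2 of 10 each.

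The lists were also split into promoter regions, at the promoter of any gene, and other regions. This split was not planned, and its intervals were not adjusted for their number. For the undivided lists each interval included the share over all autosomal regions. Ribosomal protein genes had 0 narrow regions among 67 promoter regions, which allows a share of up to 4.48% by 3 counts or 5.42% by the Wilson interval, and 26 among 77 other regions (33.8%, 24.2 to 44.9%). Over all autosomal regions these shares were 9.06% in promoters and 22.6% elsewhere. Rpl37a and Rps24 had 3 each, all intergenic, and Rps19 had 2, including the region of 112 bp printed above. Proteasome genes had 1 of 32 in promoters (3.13%, 0.554 to 15.7%), an interval that includes the overall share, and 15 of 40 elsewhere (37.5%, 24.2 to 53.0%), with 2 each at Psma3 and Psmd3. Replication-dependent histone genes, which are short and lie in clusters, showed the other order, with 7 of 36 promoter regions narrow (19.4%, 9.75 to 35.0%) and 2 of 28 elsewhere (7.14%, 1.98 to 22.6%). In promoters the Wilson intervals of clustered protocadherins (6 of 22, 27.3%, 13.2 to 48.2%), formative and primed genes (4 of 17, 23.5%, 9.56 to 47.3%) and polycomb genes (6 of 30, 20.0%, 9.51 to 37.3%) also lay above the overall promoter share. These counts are small, and lower limits of 9.75%, 9.56% and 9.51% are close to 9.06%. Vomeronasal receptor genes had 1 promoter region, which was narrow, too few to compare. Hist1h2ab and Hist1h3a each had a single closest region, a narrow region at their own promoter with a GC content of 36% and 37% in its central 100 bp. The only region of Hist1h2bn, with 40%, was narrow but lay 512 bp from its TSS, at the promoter of another gene. Both regions of Hist1h4n were narrow, with 62% in its promoter region and 55% in the other.

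Among gene clusters, clustered protocadherins had the highest narrow share of the 15 lists, 20 of 70 (28.6%, 19.3 to 40.1%), with 2 each at Pcdha5, Pcdhb2 and Pcdhgb1. With protein-coding genes only their share was 25.9%, below that of the DNA methylation list. Hox genes had 14 of 63 (22.2%), at 14 genes with 1 each, such as a region 635 bp from the TSS of Hoxa13 (chr6:52260084-52260250), at the promoter of another gene, and the promoter region of Hoxb1 (chr11:96366194-96366335). Olfactory receptor genes had 56 of 277 (20.2%) and vomeronasal receptor genes 21 of 90 (23.3%). Of the 15 lists 9 were above the overall share, and the interval of each of the 15 lists included it. With protein-coding genes only the interval of the DNA methylation list did not, at 29.9% (21.7 to 39.6%).

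**Figure D5:**
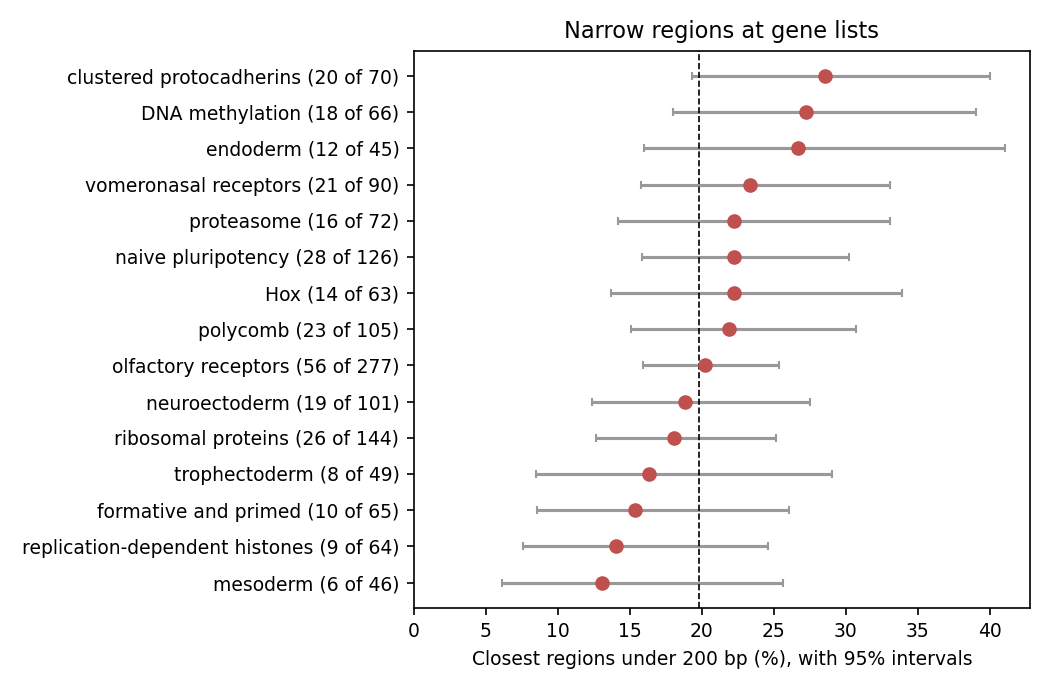
Share of narrow regions (points, x axis in %) among the regions whose closest gene is on each of 15 gene lists, with 95% Wilson intervals as error bars, counts in brackets and the share over all autosomal regions as a dashed line. Each interval includes the overall share of 19.8%.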

How the data were processed

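The authors aligned paired-end reads to mm10 with STAR (2.5.3a), retaining unique alignments on the autosomes, X and Y, and discarded duplicates with Picard. They obtained peaks in each library with MACS2 (2.1.1.20160309) on whole fragments, merged the peaks of the 12 ATAC-seq libraries with BEDOPS and removed those overlapping peaks of a ChIP-seq input. No shift of read ends for the Tn5 insertion is named, which bears on region edges. The deposited values are positions alone, so libraries were not grouped or compared and no read count of a region is known. ChIP-seq samples were not analysed here.

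Python (3.11.15), numpy (2.4.6), pandas (2.3.3), scipy (1.17.1) and matplotlib (3.10.9) were used with GRCm38 sequence and GENCODE M21. Shares have 95% Wilson intervals and their differences Newcombe intervals. For a count of 0 the share that 3 counts would give is the limit. Intervals of medians come from binomial order statistics. Widths were not tested. The functions were checked on simulated data. Genes named were those with tags or reporters and Nanog, the 5 with the most narrow regions, the 5 highest and 5 lowest in narrow share among genes with 10 or more regions, and up to 4 per list, with ties in alphabetical order, after the larger number of regions where shares were tied. Members and lists were chosen with earlier results of these data known. For repeats, medians of 0 in both groups led to the share above 50%, chosen after seeing the data. Alternatives were other width limits, joined neighbours, promoter definitions, windows, gene sets and chromosomes, and, added after seeing the data, regions of 200 to 299 bp for comparison.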

Additional observations from a re-analysis of the deposited data

Results flagged for a closer look

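The rule took autosomes only, and regions under 200 bp were also present on the sex chromosomes, which the comparisons leave out. Chromosome X held 327 such regions of 1825 (17.9%, 95% Wilson interval 16.2 to 19.7%), or 2.00 per Mb, against 5.03 to 9.60 per Mb on the autosomes. Chromosome Y held 7 of 29 (24.1%, 12.2 to 42.1%).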

How the results depend on the processing

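For 37 results 257 alternatives were run, of which 198 were counted as unchanged. An interval that excluded 0 did so again in the same direction, one that included 0 did so again whatever its sign, a value not set against 0 lay within the main interval, or a number of motifs or lists was similar. The intervals of gene lists are wide, and mesoderm genes at 19.5% with protein-coding genes only, against 13.0%, were counted so. Values are narrow minus wider regions, in percentage points unless said otherwise, and the cause of a change was not tested. The share of narrow regions itself was 5.20% with a limit of 150 bp, 30.8% with 250 bp and 40.4% with 300 bp by construction, and 19.04% or 17.8% after joining regions at most 100 or 500 bp apart. The exon difference was -0.501 with a limit of 150 bp, 0.706 with promoters 1000 bp and 0.203 with promoters 5 kb to both sides of a TSS, 0.00537 with any overlap in place of the centre, and -0.0969 against regions of 200 to 299 bp. The intergenic difference was 0.380 against regions of 200 to 299 bp. For a neighbouring region the difference was -0.0115 within 20 kb and -0.587 against regions of 200 to 299 bp. The median distance to a TSS differed by 1663 bp with a limit of 150 bp, 3094 bp with 250 bp, 3799 bp with 300 bp, 3207 bp after joining at most 500 bp apart, 5092 bp with protein-coding genes only and 63.5 bp against regions of 200 to 299 bp. The difference in median GC content was -1.74 over whole regions, -2 outside promoters and 0 against regions of 200 to 299 bp. Counted over whole regions, where a wider region has more sequence, the motif differences turned to -1.62 for the octamer, -9.91 for SOX, -2.04 for ESRRB, -1.61 for CTCF and -4.64 for AP-1. The SOX difference was -0.0240 outside promoters and -0.289 at a central GC content of 45 to 55%, and the ETS difference was 0.0151 outside promoters. For KLF, whose main difference of -0.0527 had an interval with 0, it was 0.0618 after joining at most 100 bp apart, 0.131 outside promoters and 0.201 against regions of 200 to 299 bp, all with 0 in the interval, and 0.384, 0.650 and -8.99 without 0 after joining at most 500 bp apart, at a central GC content of 45 to 55% and over whole regions. Against regions of 200 to 299 bp the differences were 0.0479 for ETS, 0.00373 for NRF1 and -0.0190 for AP-1. Of 9 motifs, 8 had an interval without 0, and this number was 5 with a limit of 150 bp, 3 outside promoters, 2 at a central GC content of 45 to 55% and 1 against regions of 200 to 299 bp. The highest narrow share of an autosome was 24.8% outside promoters. The number of gene lists above the overall share was 5 when all regions within 50 kb of a TSS were taken. No paired analysis was possible because the deposited list pools all libraries, although the labels of the populations share replicate numbers. Depth limits which regions were found in a library, and cannot be assessed from positions alone.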
